A study of Mus musculus with 14 samples.

Results

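The genes described here encode the proteins of the cytosolic ribosome. They were taken by name from a deposited table of adipose tissue transcripts: gene names made of Rpl or Rps, a number and at most 1 further letter of a fixed set, plus the stalk genes Rplp0, Rplp1 and Rplp2 and the small-subunit gene Rpsa. Names ending in -ps (pseudogenes) and the Rps6 kinases were left out. This gave 83 genes of the 54955 gene symbols or unnamed IDs in the table, 32 of the small subunit and 51 of the large subunit, 3 of the latter forming the stalk. Of the 83, 7 carry a final l in their name (Rpl3l, Rpl6l, Rpl10l, Rpl32l, Rpl39l, Rps4l and Rps27l), which marks a copy named after another ribosomal protein gene; the other 76 are called the standard genes.

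The study sequenced RNA from adipose tissue of C57BL/6 mice aged 21 weeks, in 7 libraries labelled wild type (WT, replicates 3 to 9) and 7 labelled knockout for Dectin-1 (KO, replicates 1 to 7), the β-glucan receptor of myeloid cells encoded by Clec7a. The labels name no treatment, fat depot, sex or knockout allele, and do not say that each library is a different animal, so p-values measure the spread between these libraries, which may be technical. The values are TPM, the share of a library's transcripts that a gene takes after correction for gene length, scaled to the same total in every library. A rise in 1 class therefore lowers the others, and since TPM keeps no read numbers, sequencing depth is unknown here.

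A cytosolic ribosome holds 1 copy of nearly every ribosomal protein, arranged around the ribosomal RNA of a small subunit, which reads the mRNA, and a large subunit, which joins amino acids. In mammals the mRNAs of these proteins begin with a C followed by a run of C and T, the terminal oligopyrimidine or TOP tract, through which the kinase mTOR and the RNA-binding protein LARP1 set how much of them is translated. Ribosomal protein mRNAs are among the most abundant of any cell, and small lymphocytes in particular give them a large share of their transcripts.

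The TOP tract is what these genes are known to share at the start of transcription, so the RefSeq start-site windows of the genes discussed most are shown (build GRCm38.p6, matched by gene symbol, the first start listed for each gene, 15 bases before the start and 15 from it onward). The letters CTTTC, a form the tract often takes, are in capitals.
Rps27: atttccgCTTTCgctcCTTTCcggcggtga
Rpl12: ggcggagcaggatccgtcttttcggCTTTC
Rplp2: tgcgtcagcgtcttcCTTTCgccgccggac
Rpl34: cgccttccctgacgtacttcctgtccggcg
Rpl10: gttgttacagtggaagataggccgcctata
Rps27l: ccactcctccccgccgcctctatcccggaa
Rpl39l: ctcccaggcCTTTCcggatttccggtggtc
Rpl3l: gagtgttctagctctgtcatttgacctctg
These windows lie at chr3:90213634-90213663 (minus strand) for Rps27, chr2:32961697-32961726 (plus) for Rpl12, chr7:141447636-141447665 (plus) for Rplp2, chr3:130730384-130730413 (minus) for Rpl34, chrX:74270801-74270830 (plus) for Rpl10, chr9:66946071-66946100 (plus) for Rps27l, chr16:10170213-10170242 (plus) for Rpl39l and chr17:24727811-24727840 (plus) for Rpl3l. Each spans the first bases of the annotated transcript and the promoter bases just before them.

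Of the 83 genes, 61 had 1 or more RefSeq windows, 73 windows in all. CTTTC stood on the coding strand within 50 bases of the start in 36 of the 73 windows (49.3%), against 12.8% of all 32851 windows of the same length. On the other strand it stood in 9.59% of the ribosomal protein windows and 12.1% of all. The related letters CTTCC, which can overlap CTTTC by their last and first C, were in 45.2% of the ribosomal protein windows and 19.5% of all on the coding strand, and in 26% and 22.1% on the other. CCGGAAG was in 12.3% and 2.75% on the coding strand and in 6.85% and 2.72% on the other. A start base of C with 4 or more C or T after it was annotated in 14 of the 73 windows (19.2%) and in 2.51% of all; between 10 bases before and 15 after the start, a C with 5 or more C or T after it was in 47.9% and 18.5%. In the windows shown, Rps27 has CTTTC 2 times, and Rpl12, Rplp2 and the paralog Rpl39l have it 1 time each. Rpl34, Rpl10 and the paralogs Rps27l and Rpl3l, the latter of muscle, have it 0 times. A match is a description of letters, and annotated starts can lie some bases from the start used in the cell.

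Several properties of the libraries bear on every value here. Clec7a was measured in all 7 libraries labelled KO, with a mean of 6.94 ± 2.61 TPM; the WT mean was 10.99 ± 5.99 TPM (SD over 7 libraries). Its log2 fold change was -0.48 ± 0.33 (SE) with a limma adjusted p of 0.59, and the 2 ranges overlapped. WT replicates 3, 5, 8 and 9, at 12.49 to 18.86 TPM, lay above every KO-labelled library, the highest of which was at 10.46 TPM. WT replicates 4, 6 and 7, at 4.1 to 5.96 TPM, lay within the KO-labelled range. The knockout label is therefore not settled by this gene's level, and each direction below is of KO-labelled against WT libraries. In 3 libraries, KO replicate 7 and WT replicates 4 and 7, the B-cell receptor subunit Cd79a was at 0.62 to 1.52 TPM, where the other 11 stood between 177 and 719.9 TPM. The adipocyte hormone gene Adipoq was at 683 TPM or more in all 14 libraries, so the labelled tissue's markers were present throughout. Skeletal muscle markers ranged widely: their score, the mean log2(TPM + 1) of 18 genes, lay between 1.25 and 8.21. In a bulk sample, fewer cells of a type and less RNA per cell cannot be told apart.

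The 83 ribosomal protein genes together took between 6.00% and 21.1% of the TPM, a 3.51-fold range. The share was 14.97% ± 4.73 in the KO-labelled libraries (SD, n = 7; lowest 7.66%, median 16.0%, highest 21.1%) and 12.88% ± 4.82 in WT (SD, n = 7; lowest 6.00%, median 13.9%, highest 19.4%). The groups overlapped over almost their whole range: KO replicate 4 was highest and WT replicate 5, at 19.4%, next. The 3 lowest libraries were WT replicate 4 (6.00%), WT replicate 7 (7.28%) and KO replicate 7 (7.66%), which are the 3 with few B-cell transcripts, followed by KO replicate 2 at 9.69%. Among the other 11 libraries the share lay between 9.69% and 21.1%. The difference of KO-labelled minus WT was 2.09 percentage points with all libraries and 0.81 when those 3 were left out, of which 2 are WT. Mitochondrially encoded transcripts, the other large class, took 7.73% to 16.9% of the TPM in KO-labelled and 4.51% to 13.6% in WT libraries, and KO replicate 2 was highest at 16.9%.

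**Figure D1:**
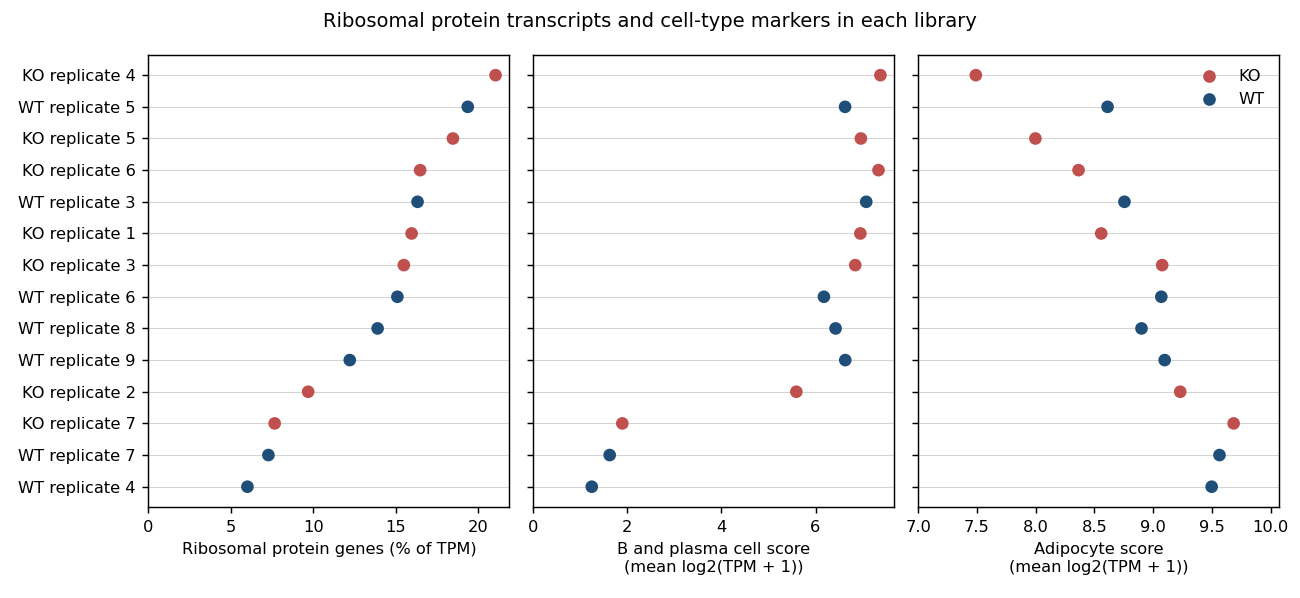
Each row is a library (KO red, WT blue), ordered by the share of TPM in ribosomal protein genes (left, percent), with its B and plasma cell score (middle) and adipocyte score (right, axis starting at 7), both as mean log2(TPM + 1) over their markers. The 3 libraries with the lowest ribosomal protein shares, at 6.00% to 7.66%, have B-cell scores of 1.89 or less, and both groups are spread over the whole range.

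Both subunits varied together, the small one over a 3.77-fold range and the large one over a 3.31-fold range. The small-subunit genes took 2.59% to 9.77% of the TPM and the large-subunit genes 3.41% to 11.3%. The ratio of small to large was 0.85 ± 0.04 in KO-labelled and 0.82 ± 0.04 in WT libraries (SD, n = 7 each), and ranged only from 0.76 to 0.88. It was lowest in the 3 libraries with few B-cell transcripts, at 0.76 to 0.77, and 0.82 to 0.88 in the other 11.

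Levels differed widely between the genes. On the TPM scale, which is per length, the mean level of the 76 standard genes over the 14 libraries ran from 57.5 (Rpl12) to 6831 (Rpl13a), with a median of 1662, and 56 of the 76 were above 1000 TPM. The highest were Rpl13a, Rps27 at 6676, the stalk protein gene Rplp1 at 5049 and Rps15, a protein of the small-subunit head, at 4386 TPM. Only Rpl12, whose protein sits at the base of the stalk, and Rpl5, whose protein binds the small ribosomal RNA of the large subunit, were under 100 TPM, at 57.5 and 63.6. Copies of these genes were also measured: 322 symbols carry a ribosomal protein name with a -ps suffix, and together they took 0.553% to 2.08% of the TPM. Among the 20 of these with the highest level, 7 stood above the gene they are named after, such as Rps23-ps1 at 2123 TPM against 779.7 for Rps23 and Rpl14-ps1 at 1335 against 561 for Rpl14. The counting could divide reads between a gene and a near-identical copy, so the level of a single gene is uncertain where a copy exists.

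The standard genes moved together from library to library. Their log2 values over the 14 libraries had a median SD of 0.56; after the mean of all 76 in the library was taken off, the median SD was 0.15 and 56 of 76 were under 0.2. Across the 11 libraries with B-cell transcripts, the correlation of a gene with the mean of the other 75 had a median of 0.92 and was above 0.9 for 46 genes; it is given as a description, since all values of a library share its total. The tightest to the mean was Rps9, a small-subunit protein that binds ribosomal RNA early in assembly, with an SD of 0.072 after the mean was taken off, followed by the large-subunit genes Rpl27a (0.078) and Rpl6 (0.091). Lowest in correlation were Rpl10 (0.41), whose protein joins the large subunit last, Rpl41 (0.60), which encodes the shortest ribosomal protein, and Rplp2 (0.66). Rpl41 and Rplp2 were highest in WT replicate 6, at 5762 and 3554 TPM, where the ribosomal protein share was 15.1%. Next was KO replicate 4, at 4337 and 2731 TPM. The part of WT replicate 6 in these 2 correlations was not tested.

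The lowest library was the same for nearly all standard genes. WT replicate 4 was lowest for 73 of 76, and KO replicate 4 was highest for 52. The 3 libraries with few B-cell transcripts all lay below the other 11 for 72 of the 76, where 13.7% of all 14719 tested genes show this order; Rpl10, Rpl31 and Rplp2 were among the exceptions. T-cell markers show it in 17 of 17. B-cell markers show it in 15 of 16, which largely follows from setting these 3 libraries apart by their B-cell transcripts. Over the 11 other libraries the rank correlation of the standard genes with the B and plasma cell score was positive in 76 of 76, with a median of 0.66, against a median of 0.25 over all tested genes. With the adipocyte score it was negative in 75 of 76, with a median of -0.82, against -0.07 over all tested genes. Within these 11 libraries, ribosomal protein transcripts were thus higher where lymphoid markers were higher and adipocyte markers lower. The relation to the B and plasma cell score was not particular to them. Its median was 0.64 for translation factors and other TOP mRNAs and 0.71 for ribosome biogenesis genes. The part of each cell type in the values was not tested.

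The genes did not follow the common level with equal steepness. Slopes were taken within groups over all 14 libraries. The 3 libraries with few B-cell transcripts, lowest of their groups in the mean of these genes, weigh heavily in them. The slope of a gene's log2 value on the mean of the other 75 lay between 0.8 and 1.2 for 57 of 76. It was steepest for Rps27, a small-subunit zinc-finger protein, at 1.66, then Rps16 (1.47), Rps15a (1.36), Rpl13a (1.36), Rps7 (1.36) and Rpl12 (1.31). It was shallowest for Rpl10 (0.53) and Rpl24 (0.55). The median slope was 1.06 for the 30 small-subunit genes, 0.97 for the 43 large-subunit genes outside the stalk, and 0.95 for the 3 stalk genes. The highest slope was 1.66 in the small subunit, 1.36 in the large and 1.07 in the stalk. The 31 standard genes with CTTTC in a window had a median slope of 1.00, as did the 25 with a window but no CTTTC. Slope was only weakly ordered with level (Spearman 0.21 across the 76 genes) and with model length (0.16); genes are not independent replicates, and no test is given.

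Rps27 showed the widest range of the standard genes. It stood at 2500 (lowest), 8120 (median) and 12813 TPM (highest) in the KO-labelled libraries and at 1416, 6201 and 10580 TPM in WT. Its highest value was 9.05 times its lowest, where the median standard gene had 3.49 and the narrowest, Rpl24, 2.09. Rps27 alone made up 2.36% of the ribosomal protein total in WT replicate 4 and 6.08% in KO replicate 4. Its share of the total was 2.36% to 3.26% in the 3 libraries with few B-cell transcripts and 4.04% to 6.08% in the other 11, so these did not overlap.

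**Figure D2:**
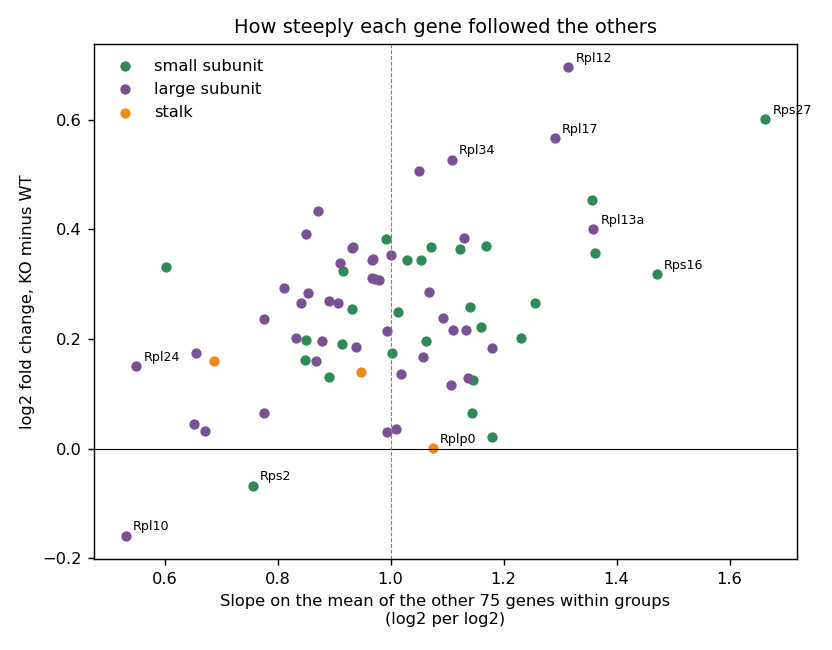
Each point is 1 of the 76 standard genes, coloured by subunit. The x axis is the slope of its log2(TPM + 1) on the mean of the other 75 genes within groups, and the y axis its log2 fold change, KO-labelled minus WT. Rps27 lies farthest right at 1.66 and Rpl10 at the lower left, at 0.53 and -0.16.

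KO-labelled and WT libraries were then compared gene by gene, which asks whether the KO label goes with other ribosomal protein levels in these libraries. No ribosomal protein gene was called higher or lower. The test was limma-trend on log2(TPM + 1) over the 14719 genes that reached 1 TPM in 7 or more libraries, with Benjamini-Hochberg adjustment and a threshold of 0.05. Of the 83 genes, 80 passed that filter; Rpl10l, Rpl32l and Rpl6l did not, being at 0.06 TPM or less, 0.31 or less and 0 in all libraries. Of the genes that passed, 0 were called in either direction, where 0.0204% of all tested genes were called lower and 0% higher. At an unadjusted p under 0.05 limma gave 0 higher, where 4.67% of all genes were, and 2 lower, where 6.74% were; both are paralogs, Rps4l and Rpl39l. The groups overlapped for every one of the 80, where 0.319% of all tested genes had no overlap.

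Fold changes were small and mostly of 1 sign. Positive values were found for 74 of the 80 genes (92.5%), where 54.6% of all tested genes were positive, with a median of 0.24 against 0.04 over all tested genes. They ranged from -0.16 (Rpl10) to 0.70 (Rpl12) among the standard genes, with standard errors of 0.19 to 0.46, and the 95% interval held 0 for 76 of 76. The median was 0.26 for the small-subunit genes, 0.24 for the large-subunit genes and 0.14 for the stalk genes. Because the genes move together with the library, the number of positive values counts nearly the same measurement many times. Leaving out the 3 libraries with few B-cell transcripts gave a median of 0.04, with 52 of 79 positive, and with the B and plasma cell score as a covariate it was 0.01, with 42 of 80 positive. Single libraries moved it too: leaving out WT replicate 4 gave 0.07, WT replicate 7 0.12, KO replicate 4 0.15 and KO replicate 7 0.38. It was 0.12 with the skeletal muscle score as a covariate.

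**Figure D3:**
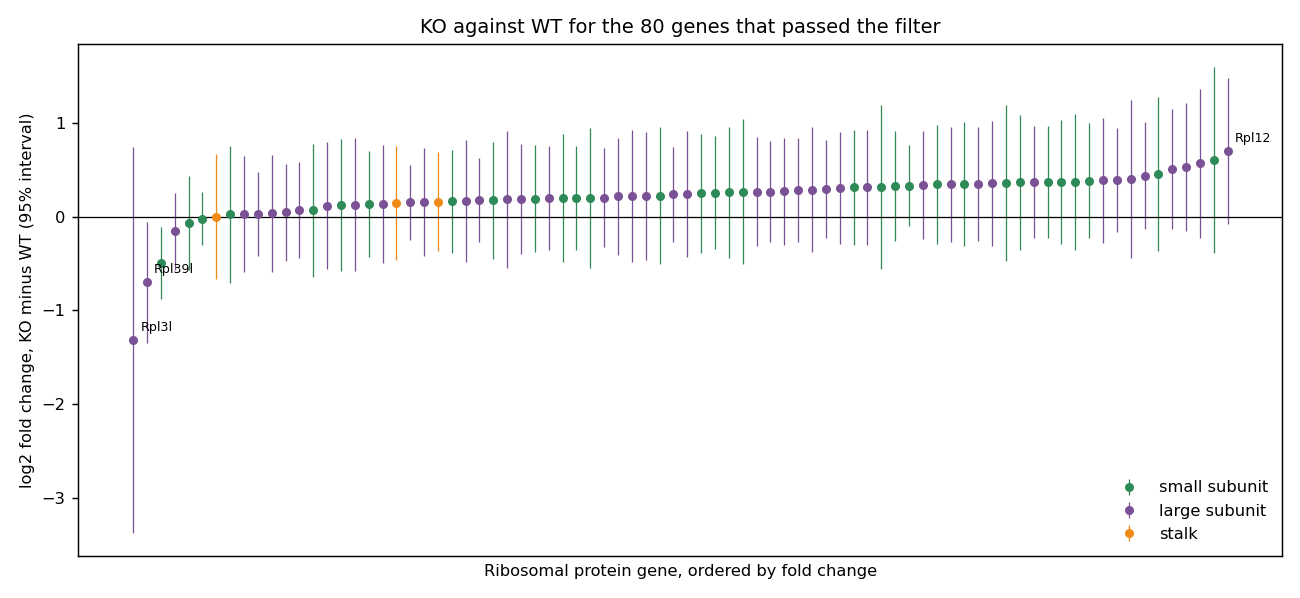
The log2 fold change of each of the 80 tested genes, KO-labelled minus WT, with its 95% interval from limma, ordered from lowest to highest and coloured by subunit, with 3 genes labelled. All but 6 points lie above 0, and 78 of 80 intervals hold 0.

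The largest positive value was that of Rpl12. It stood at 27.4 (lowest), 77.1 (median) and 107 TPM (highest) in the KO-labelled libraries and at 16.5, 44.9 and 69.6 TPM in WT. Most KO-labelled libraries were above most WT libraries, but KO replicates 2 and 7 lay within the WT range and the other 5 above it. The log2 fold change was 0.70 ± 0.36 (SE; limma adjusted p = 0.48, not past the threshold). Relative to the mean of the standard genes the difference was 0.44, the largest of any member in this direction.

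Next by size were Rps27, Rpl17, Rpl34 and Rpl36a, all but the first of the large subunit. Rps27 had a log2 fold change of 0.60 ± 0.46 (SE; limma adjusted p = 0.62). Rpl17, whose protein lines the exit of the peptide tunnel, stood at 879, 2334 and 3201 TPM (lowest, median, highest) in KO-labelled and 550, 1604 and 2697 TPM in WT libraries, with a fold change of 0.57 ± 0.37. Rpl34 stood at 869, 1845 and 2675 TPM against 516, 1296 and 1937, with a fold change of 0.53 ± 0.32. Rpl36a stood at 519, 1042 and 1458 TPM against 327, 797 and 1057, with a fold change of 0.51 ± 0.30. In each of these the highest library was KO replicate 4 and the lowest WT replicate 4, and the groups overlapped widely. Rpl21, also among the genes of smallest p, had a value of 0.43 ± 0.27. For Rpl36a, the row of a copy, Rpl36a-ps2, stood above the gene itself, at 1322 TPM on average against 851. The level of Rpl36a is therefore uncertain.

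Small fold changes were found for the stalk genes and several of the best known ribosomal proteins. Rplp0, the stalk base to which elongation factors are recruited, stood at 1813 ± 606 TPM in KO-labelled and 1842 ± 720 in WT libraries (SD, n = 7 each), with a log2 fold change of 0.00 ± 0.31 (SE). Its partners Rplp1 and Rplp2 had fold changes of 0.14 ± 0.28 and 0.16 ± 0.25. Rpsa, a small-subunit protein also known as a laminin receptor, had 0.02 ± 0.34. Rpl3, a protein next to the catalytic centre of the large subunit, stood at 1093 ± 345 against 1096 ± 412 TPM, with 0.03 ± 0.29. Of the most abundant genes, Rpl13a had 0.40 ± 0.39 and Rps15 0.20 ± 0.32. The 95% interval of Rplp0, from -0.67 to 0.67, shows how large a difference these libraries could hold unseen for that gene. Other intervals reached further, and that of Rps27, the widest of the standard genes, ran from -0.39 to 1.59.

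Rpl10, the X-linked protein that joins the large subunit last, was the standard gene with the lowest value. It stood at 553 (lowest), 802 (median) and 920 TPM (highest) in KO-labelled and 541, 932 and 1150 TPM in WT libraries. The groups overlapped, and the log2 fold change was -0.16 ± 0.19 (SE; limma adjusted p = 0.73). With the -ps rows added it was 0.06, as the row Rpl10-ps3 stood at 1100 TPM on average, above Rpl10 itself at 813.

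The paralogs did not follow the genes they are named after. Rps27l, a copy of Rps27 known as a target of the tumour suppressor Trp53, stood at 180 (lowest), 209 (median) and 311 TPM (highest) in KO-labelled and 193, 234 and 260 TPM in WT libraries. It was highest in KO replicate 7 and lowest in KO replicate 4, the library where Rps27 was highest. Its log2 fold change was -0.02 ± 0.13 (SE; limma adjusted p = 0.94), and its SD over the 14 libraries was 0.22 on the log2 scale against 0.94 for Rps27. As a share of Rps27, Rps27l was 1.41% to 5.09% in the 11 libraries with B-cell transcripts and 9.67% to 16.5% in the other 3, without overlap. Its rank correlation with the B and plasma cell score over the 11 was -0.68, where that of Rps27 was 0.69.

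Rps4l and Rpl39l had the smallest p of all members and were lower in the KO-labelled libraries, though not past the adjusted threshold. Rps4l, a copy of the X-linked small-subunit gene Rps4x, stood at 23.2 (lowest), 43.5 (median) and 60.2 TPM (highest) in KO-labelled and 49.3, 57.8 and 68.2 TPM in WT libraries. KO replicates 3 and 7 lay within the WT range and the other 5 below it. The log2 fold change was -0.50 ± 0.18 (SE; limma adjusted p = 0.33), and -0.51 when the 3 libraries with few B-cell transcripts were left out. Over 30 alternative settings its limma adjusted p lay between 0.12 and 0.63. Its rank correlation over the 11 other libraries was 0.74 with the adipocyte score and -0.66 with the B and plasma cell score, and its lowest library, KO replicate 4, had the lowest adipocyte score of all, 7.49. Rps4x had a fold change of 0.13 ± 0.26.

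Rpl39l, a copy of Rpl39, the small protein of the peptide tunnel, was low throughout. It stood at 1.32 (lowest), 2.28 (median) and 5.06 TPM (highest) in KO-labelled and 2.66, 4.74 and 9.73 TPM in WT libraries. The groups overlapped, with the 2 highest values in WT replicates 7 and 4. The log2 fold change was -0.70 ± 0.30 (SE; limma adjusted p = 0.41), on the log2(TPM + 1) scale, which understates changes of so low a gene. Rpl39 had 0.24 ± 0.31.

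**Figure D4:**
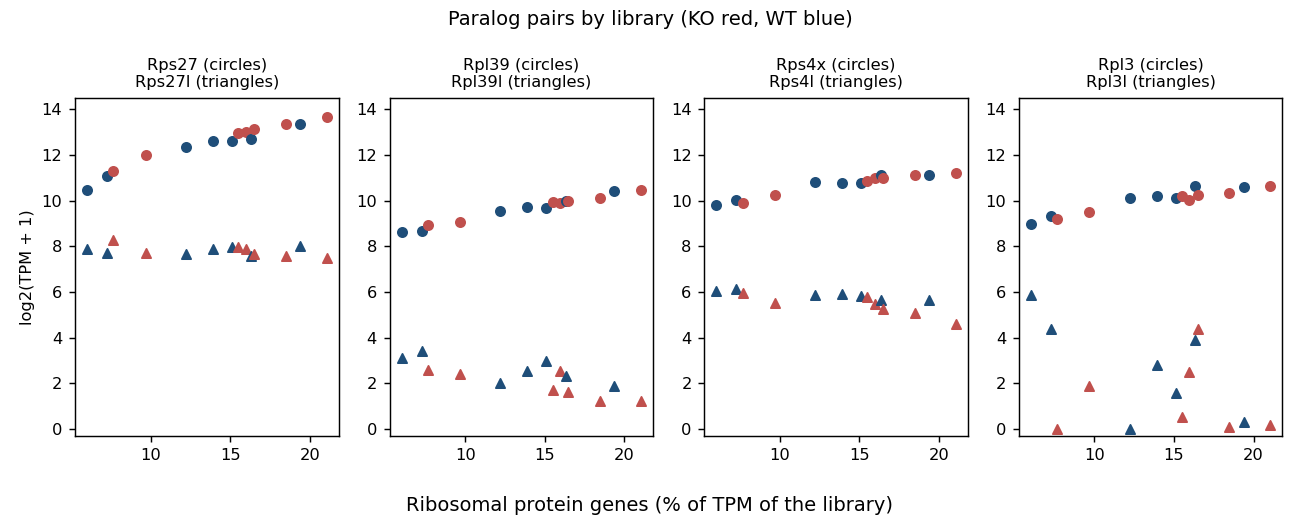
Each panel shows a standard gene (circles) and the paralog named after it (triangles) as log2(TPM + 1) against the share of TPM in ribosomal protein genes of the library, KO-labelled red and WT blue. The circles are mostly higher at larger shares in all 4 panels; Rps27l stays between 180 and 311 TPM, Rps4l and Rpl39l are lowest where the share is high, and Rpl3l takes no order from it.

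Rpl3l, the copy of Rpl3 made in skeletal muscle and heart, followed the skeletal muscle markers. It reached 1 TPM in 3 KO-labelled libraries and 5 WT libraries and was listed at 0 in KO replicate 7 and WT replicate 9. WT replicate 4 was highest at 57.5 TPM, then KO replicate 6 at 20.1, WT replicate 7 at 19.5 and WT replicate 3 at 13.7 TPM. Its log2 fold change was -1.31 ± 0.96 (SE; limma adjusted p = 0.61). Those libraries had muscle scores of 8.21, 7.43, 6.98 and 6.64, the 4 highest of all. Over the 14 libraries, Rpl3l correlated with the muscle score at a Pearson r of 0.98 and a Spearman rho of 0.97 (permutation p = 1e-05 for each, the smallest that 100000 resamples can give, two-sided; 1 relation tested). Without the 2 libraries farthest from the median score, WT replicate 4 and KO replicate 5, r was 0.99 (permutation p = 1e-05). Within KO-labelled libraries r was 0.99 (exact permutation p = 0.0006) and within WT 0.99 (exact permutation p = 0.0002), n = 7 each. Rpl3l is the only ribosomal protein gene for which such a relation was tested, and it was picked as a known muscle gene with the spread in muscle markers already known.

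**Figure D5:**
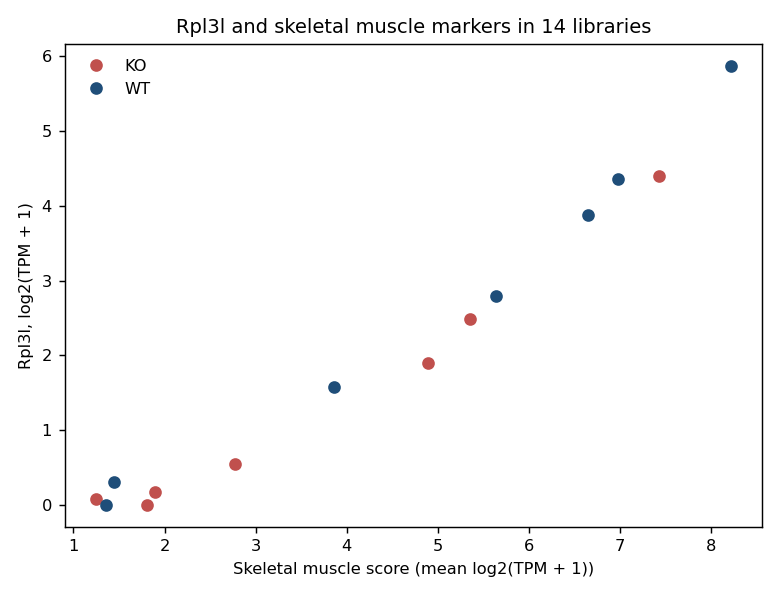
Each point is a library, KO-labelled red and WT blue. The x axis is the mean log2(TPM + 1) of 18 skeletal muscle markers and the y axis log2(TPM + 1) of Rpl3l, which climbs from 0 TPM to 57.5 TPM in WT replicate 4 at a score of 8.21.

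Of the 3 ratios of paralog to parent that were tested, none passed the threshold between groups; that of Rps4l to Rps4x was not tested. Apart from the 1 TPM added to each value, such a ratio does not depend on the library's total. That addition weighs heavily for Rpl3l, at 0 in KO replicate 7 and WT replicate 9, and for Rpl39l, at 1.32 to 9.73 TPM. The ratios of Rpl3l and Rpl39l are therefore not free of the total. On the log2 scale the ratio of Rps27l to Rps27 was -4.97 ± 1.05 in KO-labelled and -4.35 ± 0.99 in WT libraries, that of Rpl39l to Rpl39 -7.86 ± 1.12 and -6.92 ± 1.198, and that of Rpl3l to Rpl3 -8.65 ± 1.70 and -7.31 ± 2.64 (SD, n = 7 each). Two-sided exact permutation tests gave p = 0.26, 0.16 and 0.27, with an adjusted p of 0.27 for each over the 3 ratios. The difference for Rpl3l to Rpl3, -1.34 with all libraries, was 0.05 when the 3 libraries with few B-cell transcripts were left out.

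Other genes of the translation machinery were set beside the ribosomal proteins as lists. No gene of these lists was called, where 0.0204% of all genes were. The counts below are to be read against all tested genes, of which 54.6% had positive fold changes, 4.67% were higher and 6.74% lower at an unadjusted p under 0.05. Translation factors and other mRNAs with TOP tracts had positive fold changes in 17 of 23 tested genes, with a median of 0.07; at an unadjusted p under 0.05 limma gave 0 higher and 1 lower, the initiation factor subunit gene Eif3l, at 91.0 ± 12.0 against 118.8 ± 10.4 TPM (log2 fold change -0.39 ± 0.10, limma adjusted p = 0.22). Eef1a1, the elongation factor that brings transfer RNA to the ribosome, had 0.11 ± 0.26, and Fau, which encodes a small-subunit protein fused to a ubiquitin-like one and falls outside the naming rule, 0.27 ± 0.35. Ribosome biogenesis genes were positive in 26 of 32, with a median of 0.15, and 1 was higher at an unadjusted p under 0.05, the assembly ATPase gene Nvl, at 7.07 ± 1.49 against 4.62 ± 1.39 TPM. Of the 19 tested regulators of ribosomal protein synthesis 10 were positive, with a median of 0.04, and at an unadjusted p under 0.05 limma gave 1 higher and 1 lower. The lower one was Eif4ebp1, a translation repressor controlled by mTOR, at 557 ± 275 against 861 ± 281 TPM (SD, n = 7 each), a log2 fold change of -0.71 ± 0.31 (SE) with a limma adjusted p of 0.41. The higher one was Max, the partner of Myc, at 68.3 ± 9.8 against 53.3 ± 14.9 TPM, a log2 fold change of 0.39 ± 0.17 with a limma adjusted p of 0.42.

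Genes of the mitochondrial ribosome, a separate particle that translates the mitochondrial genome, had mostly negative fold changes. Of 78 tested, 22 were positive and 56 negative, with a median of -0.10, where 54.6% of all tested genes were positive. At an unadjusted p under 0.05 limma gave 0 higher and 10 lower, where 4.67% and 6.74% of all tested genes were. Mrpl17, of its large subunit, stood at 112.5 ± 24.7 against 155.4 ± 34.1 TPM (SD, n = 7 each), a log2 fold change of -0.46 ± 0.17 (SE) with a limma adjusted p of 0.33. Their median rank correlation with the B and plasma cell score over the 11 libraries was -0.45, where that of the cytosolic genes was 0.66. That of translation factors and other TOP mRNAs was 0.64, of ribosome biogenesis genes 0.71 and of the regulators 0.35. Differences between the lists were not tested.

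Markers of other cell types were read from the same fit, and none passed the threshold. Where 54.6% of all tested genes had positive fold changes, B and plasma cell markers were positive in 15 of 16 and T-cell markers in 17 of 17, with medians of 1.11 and 1.08, and adipocyte markers negative in 13 of 16, with a median of -0.51. Summed over the list, B and plasma cell markers ranged from 256 to 4473 TPM in KO-labelled and 149 to 3710 TPM in WT libraries, T-cell markers from 61.5 to 2351 and 17.9 to 2314 TPM, and adipocyte markers from 15070.2 to 66719 and 35829 to 68786 TPM. The lowest limma adjusted p was 0.67 among B and plasma cell markers, 0.62 among T-cell markers and 0.28 among adipocyte markers. No marker of these 3 lists was at 0 in every library. Their part in the fold changes of the ribosomal protein genes was not tested beyond the fits above with the B-cell score as a covariate and without the 3 libraries. Skeletal muscle markers were negative in 14 of 15, with a median of -1.65 and sums of 49.3 to 10040 TPM in KO-labelled and 71.7 to 31176 TPM in WT libraries. Macrophage and progenitor markers had medians of -0.31 and -0.47 and endothelial markers 0.15.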

How the data were processed

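The authors deposited 1 table of 56552 rows with TPM values for 14 libraries, the authors' mean of each group, and a gene length per row. Each deposited library column sums to between 999999.3 and 1000000.3. The submitters' processing notes list Bowtie 0.12.2 and the builds mm8 and mm9 without saying what each was for. The quantifier, annotation, strand setting and handling of shared reads: not given in the sources used here. TruSeq libraries began with 1 ug of total RNA, per the labels' protocols. No 2 library columns are identical.

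Rows with the same gene name were summed. Genes that reached 1 TPM in 7 or more libraries were tested on log2(TPM + 1) with limma-trend (limma 3.58.1, R 4.3.3, robust prior, two-sided), Benjamini-Hochberg over all 14719 genes; scores and exact permutation tests used numpy 2.4.6 and scipy 1.17.1. The fit was tested on simulated data. A cell-type score is the mean log2(TPM + 1) of its markers. Named genes were Clec7a, the 8 members with the smallest p, the 4 highest and 3 lowest expressed in mean TPM, the 4 most and 3 least variable around the members' mean, 5 paralog pairs, the stalk genes, Rpsa and the genes of smallest p in other lists; others named (Rpl5, Rpl24, Rpl31, Rpl41, Rps7, Rps15a, Rps16, Rps23, Rpl14, Fau, Eef1a1 and the -ps rows) were chosen after their values were seen. 1 gene that the rule names is not reported here. The members and lists were chosen with earlier results of these data known. Alternatives were 2 pseudocounts, 2 filters, 4 scalings, 2 ways of summing rows, libraries left out, a replicate block, 2 covariates and a non-robust prior.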

Additional observations from a re-analysis of the deposited data

Results flagged for a closer look

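In all, 52 sets of 7 libraries were checked. They were 24 named genes, the share of TPM in ribosomal protein genes and the share of Rps27l in Rps27, in each group. Of these sets, 3 held a library far from the other 6, by a gap of more than 0.568 of the whole range. Chance flags about 1 in 20 sets of independent, normally distributed values. The sets here share libraries and most of their genes move together, so that rate need not hold. Rpl3l was at 20.1 TPM in KO replicate 6, with the next KO-labelled library at 4.6, and at 57.51 TPM in WT replicate 4, with the next WT library at 19.53. Rps27l as a share of Rps27 was 12.43% in KO replicate 7, the only KO-labelled library with few B-cell transcripts, with the next at 5.09%.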

How the results depend on the processing

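The count of ribosomal protein genes called was 0 in both directions under all 30 alternatives. The median log2 fold change, 0.24, stayed positive, at 0.01 with the B and plasma cell score as covariate up to 0.38 without KO replicate 7, and 0.07 to 0.38 with 1 library left out. The share of TPM differed by 0.81 to 3.31 percentage points. The correlation of Rpl3l with the muscle score was 0.979 to 0.986 with 1 library left out. The ratio of Rpl3l to Rpl3 turned to 0.0537 when the 3 libraries with few B-cell transcripts were left out; with 1 library left out the ratios were -1.84 to -0.64, -0.95 to -0.33 for Rps27l and -1.21 to -0.66 for Rpl39l. Over all genes, calls were 0 higher and 3 lower, against 13 and 6 with quantile normalization, 3 and 5 with median-ratio scaling, 2 and 4 without mitochondrial genes and 7 and 18 with the B-cell covariate. They were 0 and 0 without the 3 libraries, with the muscle covariate and in the 10 libraries with shared numbers, blocked or not. With 1 library left out they were 0 higher and 0 to 6 lower, 6 without KO replicate 7.

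Signs turned for uncalled genes near 0; the cause was not tested. Without the 3 libraries the fold changes were -0.0366 (Rplp1), -0.0036 (Rps9), -0.17 (Rpl3), -0.0162 (Rps4x), -0.16 (Rplp0), -0.0247 (Rplp2) and -0.19 (Rpsa). With the B-cell covariate they were -0.0828 (Rplp1), -0.0519 (Rps15), 0.0174 (Rps27l), -0.0582 (Rps9), -0.0398 (Rpl6), -0.21 (Rpl3), -0.0097 (Rpl39), -0.0848 (Rps4x), -0.26 (Rplp0) and -0.26 (Rpsa). With the muscle covariate they were -0.0760 (Rpl3), -0.0905 (Rplp0) and -0.0898 (Rpsa), with quantile normalization 0.16 (Rps27l), -0.0660 (Rplp0) and -0.0154 (Rpsa), with median-ratio scaling -0.0053 (Rplp0), without mitochondrial genes 0.0233 (Rps27l), and with -ps rows added 0.0598 (Rpl10). With 1 library left out the ranges were -0.11 to 0.0248 (Rps27l), -0.14 to 0.17 (Rpl3), -0.0078 to 0.27 (Rps4x), -0.15 to 0.19 (Rplp0) and -0.15 to 0.21 (Rpsa).

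Replicate numbers 3 to 7 occur in both groups, and the labels do not say whether they pair the libraries. Deviations of same-numbered libraries correlated at -0.67 to 0.80. The best match of a KO-labelled library was the WT library of its own number for replicates 5 and 7, but not for 3, 4 and 6. With the replicate block on those 10 libraries the median was 0.36 and 0 genes were called, as without the block. Unknown depth leaves genes near 0 TPM uncertain.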
